A study of Homo sapiens with 9 samples.

Results

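The NF-kB and C/EBP transcription factors and their regulators were followed in BJ fibroblasts driven into senescence by oncogenic RAS. The set was named gene by gene: the NF-kB subunits NFKB1, NFKB2, RELA and RELB, the inhibitor NFKBIA, the NF-kB induced genes TNFAIP3, TNFAIP8 and BIRC3, and the C/EBP factors CEBPB and CEBPD. All 10 were present, each in 1 row, among the 13745 genes of the deposited table. Their Ensembl identifiers there are ENSG00000109320 (NFKB1), ENSG00000077150 (NFKB2), ENSG00000173039 (RELA), ENSG00000104856 (RELB), ENSG00000100906 (NFKBIA), ENSG00000118503 (TNFAIP3), ENSG00000145779 (TNFAIP8), ENSG00000023445 (BIRC3), ENSG00000172216 (CEBPB) and ENSG00000221869 (CEBPD). Values are normalised read counts from polyA RNA-seq, on a scale that the deposited processing made identical in distribution for all libraries, with a floor of 20, a lower quartile of 77.4 and a median of 340.1. This hides the depth of each library, so counting error is unknown.

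The cells of all 9 libraries were BJ fibroblasts immortalised with hTERT. The control library (1) carried the non-targeting hairpin 500 and had no RAS activation. The 2 senescent libraries had RAS activated by the RASG12V form and carried the non-targeting hairpins 500 and 507. The lncRNA-OIS1 knockdown group had RASG12V activated and held 4 libraries, each with its own hairpin against this long non-coding RNA (32-2, 32-3, 32-8 and 32-9 for replicates 1 to 4). The p53 knockdown and the BRD7 knockdown, also with RASG12V activated, had 1 library each. By the labels every library had 14 days of 4-OHT, the drug that switches on the RAS construct, whereas the design text calls the control untreated. They do not say whether libraries of a group came from separate cultures, so the spread within a group mixes hairpins with culture and technical differences.

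NF-kB is a dimer of Rel-family proteins that inhibitors of the I-kB family hold in the cytoplasm. Signals from interleukin-1, TNF or Toll-like receptors activate a kinase complex that has the inhibitor degraded, and the freed dimer enters the nucleus. Among its targets are its own brakes, NFKBIA and TNFAIP3, and several of its own subunits. In a non-canonical branch, NFKB2 is processed to a form that pairs with RELB, and BIRC3 belongs to the ubiquitin ligase complex that restrains that branch. C/EBP proteins are basic leucine zipper factors. In senescent fibroblasts, NF-kB and CEBPB are known as drivers of the inflammatory secretome. Much of their control acts on the proteins, by degradation, phosphorylation and movement to the nucleus, and RNA levels do not measure it.

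Upstream sequences are shown for 5 members with NF-kB motifs, 1 start of each, and for TNFAIP8, the member called in the most comparisons. Of the 5, NFKBIA, BIRC3 and NFKB2 shared a pattern across libraries, and NFKB1 and TNFAIP3 were less like BIRC3 (r = 0.42 and 0.53). A link between motifs and expression was not tested. RefSeq promoters of GRCh38.p14 (a later build than the hg19 of the deposited values) were matched by symbol. RELB and CEBPD had no entry, and the other 8 of the 10 members had 15 annotated starts. The 250 bases before each start were searched on both strands for the NF-kB consensus and for TTGCNNAA, a form of the C/EBP motif. Sequences run 5′ to 3′ on the strand of the gene, and capitals mark the matched bases. Positions count back from the start with -1 as the last base before it. The stretches given at length were shortened where an exon is annotated. The 30-base stretches of NFKB2, TNFAIP3 and TNFAIP8 were not, and they overlap annotated exons. NFKBIA (minus strand, chr14:35404750-35404999), BIRC3 (plus strand, chr11:102317234-102317449) and the first start of NFKB1 (plus strand, chr4:102501109-102501328) are given at length. The second start of NFKB2 (plus, chr10:102394461-102394490) and TNFAIP3 (plus, chr6:137867188-137867217) are given as 30 bases around their matches.
NFKBIA: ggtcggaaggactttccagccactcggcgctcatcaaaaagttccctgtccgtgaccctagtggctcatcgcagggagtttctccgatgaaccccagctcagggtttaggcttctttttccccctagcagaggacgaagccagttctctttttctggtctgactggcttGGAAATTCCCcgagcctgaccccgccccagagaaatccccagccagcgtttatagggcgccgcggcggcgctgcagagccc
BIRC3: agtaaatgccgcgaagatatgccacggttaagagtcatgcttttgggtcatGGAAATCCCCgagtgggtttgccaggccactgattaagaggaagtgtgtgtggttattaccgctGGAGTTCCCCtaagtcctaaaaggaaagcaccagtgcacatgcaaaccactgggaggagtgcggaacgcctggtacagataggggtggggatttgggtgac
NFKB1: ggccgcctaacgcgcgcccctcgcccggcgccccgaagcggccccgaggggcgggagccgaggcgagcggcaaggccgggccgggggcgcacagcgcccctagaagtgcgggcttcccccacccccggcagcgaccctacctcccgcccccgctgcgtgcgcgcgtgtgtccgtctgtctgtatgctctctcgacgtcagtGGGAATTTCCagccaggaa
NFKB2: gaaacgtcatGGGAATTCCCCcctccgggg
TNFAIP3: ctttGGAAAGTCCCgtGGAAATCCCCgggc
TNFAIP8, start 2: gagaggttaatTTGCATAAggtcatacaaa
TNFAIP8, start 3: attcgtcactcTTGCAGAActttccccctg

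The NFKBIA match lies at -81 to -72 and reads GGGAATTTCC on the opposite strand. BIRC3 has 2 matches on the opposite strand, GGGGATTTCC at -199 to -190 and GGGGAACTCC at -135 to -126, and TNFAIP3 has GGGACTTTCC at -67 to -58 and GGGGATTTCC at -55 to -46 on the opposite strand. NFKB1 has GGGAATTTCC at -49 to -40. In NFKB2 the capitals cover GGGAATTCCC, which reads the same on both strands, and an overlapping match shifted by 1 base. A further match at this start, at -78 to -69, and those at the third start of NFKB2 are not shown. CEBPB also matched at its second start, only through the run GGGGGCCCCC and shifts of it, and is not shown. In all, 6 of the 8 members and 7 of the 15 windows matched, and 9.96% of 35116 RefSeq windows of the same length did. RELA had no match at either start, and TNFAIP8 had none at its 3 starts. TTGCNNAA occurred in 2 of the 15 windows, both of TNFAIP8 (plus strand, chr5:119354714-119354743 and chr5:119355894-119355923), and in 9.05% of all windows. A match is a run of letters in this window, not evidence of binding.

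The BRD7 knockdown was visible in its target: BRD7 had 94.6 in its knockdown and 536.6 to 695.3 elsewhere. LncRNA-OIS1 itself was not analysed here. Tests used limma on log2 values of 12481 genes, all 9 libraries in 1 fit, and a gene counted as called when its p, adjusted by Benjamini-Hochberg over these genes, was under 0.05. Replicate 4 of the lncRNA-OIS1 knockdown (hairpin 32-9) differed from replicates 1 to 3 in many of the genes below. Its spread enters every test, so counts of the 10 genes called are given with and without it. Replicate 4 was set apart for its values in these same data. Adjusted p-values and calls from the fit without it are therefore descriptive and likely too favourable. Counts over replicates 1 to 3 alone, or of replicate 4 against them, follow from the same choice and are descriptive too. Differences of the knockdowns from senescence share the same 2 senescent libraries, and so are not independent of each other. Fibroblast markers were present in every library: VIM, the intermediate filament of mesenchymal cells, ranged from 39745.4 to 110360.7. VIM alone of the 6 was higher in senescence than in the control, and 5 were lower. Called lower were 4, COL1A1, COL1A2, COL3A1 and PDGFRB, beside 7.10% of all genes. COL1A1 had 110360.7 in the control, against 9913.6 and 8350.8 under senescence. The summed level of the 6 fibroblast markers was 326301.2 in the control and between 88312.1 and 152167.3 in the 8 RAS libraries. Of 6 leukocyte markers 2 had rows in the table. PTPRC, the pan-leukocyte antigen, stood at 156.6 in the control and did not exceed the floor elsewhere, and the monocyte receptor CD14 stood between 25.1 and 143.9. Epithelial markers (3 of 5) summed to 801.4 to 3686.7, highest in the control, and the single endothelial marker, TIE1, to 22.2 to 266.9. The part of other cells in the results below was not tested, and in bulk RNA fewer cells of a type and less RNA per cell cannot be told apart.

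**Figure D1:**
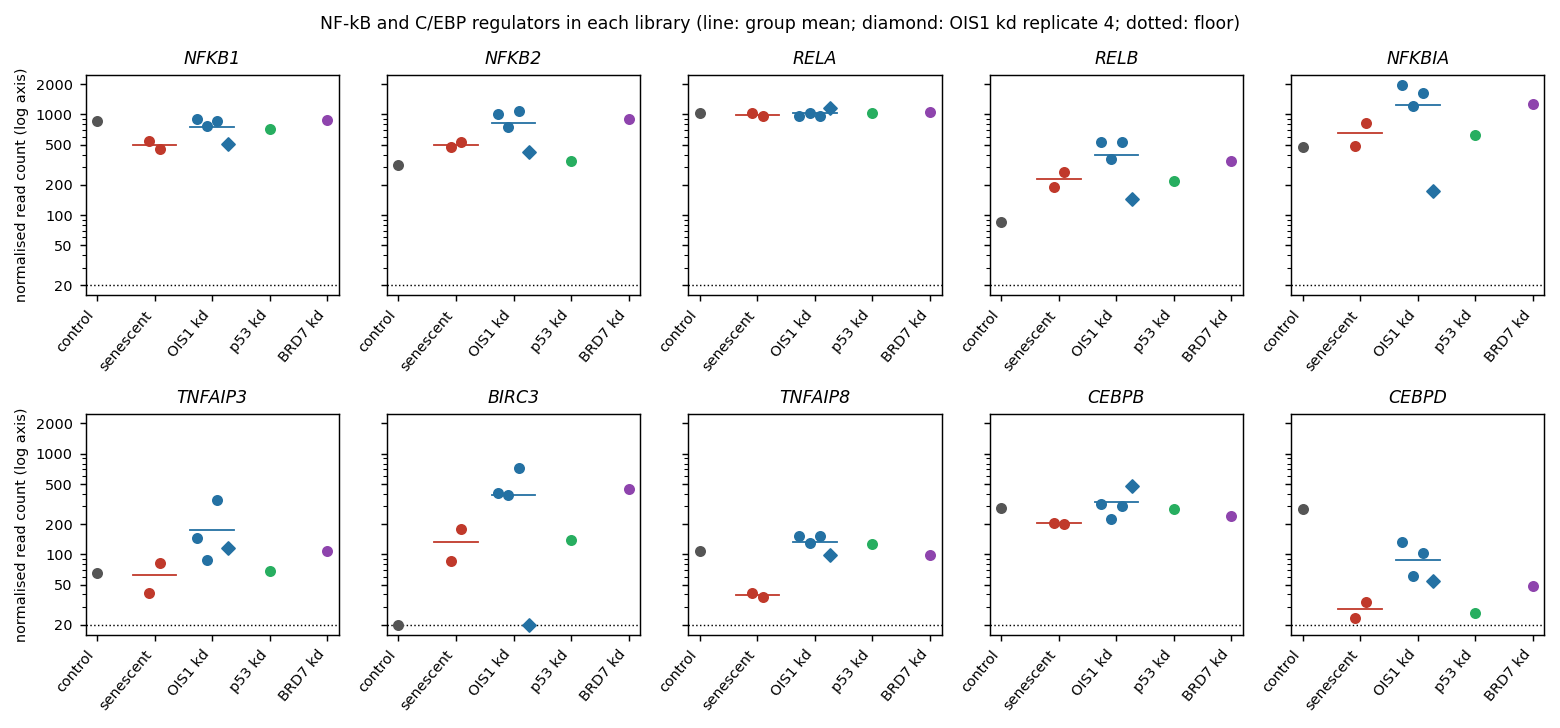
Normalised read count (log axis) of each of the 10 genes in every library, by group on the horizontal axis, with 1 point per library, lines at the means of the replicated groups, a dotted line at the floor of 20 and a diamond for lncRNA-OIS1 knockdown replicate 4. RELA varies from 959.1 to 1163.3 across all libraries, whereas BIRC3 runs from the floor to 725.4.

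RAS-induced senescence went with lower RNA for CEBPD and TNFAIP8. CEBPD, a C/EBP factor induced by inflammatory and stress signals, had 281.3 in the control, against 23.2 and 33.8 under senescence. Both senescent values lay just above the floor. The mean of 28.5 ± 7.50 (SD, n = 2) was 9.87-fold below the control (log2 -3.33, SE 0.60, limma adjusted p = 0.0251), and CEBPD fell. TNFAIP8, a TNF-induced regulator of apoptosis, had 108.2 in the control, against 41.0 and 37.7 under senescence. It fell by 1.46 on the log2 scale (SE 0.31, limma adjusted p = 0.0348), a 2.75-fold lower mean of 39.4 ± 2.33. These were the 2 members called, 2 of 10, beside 15.0% of all genes tested (7.10% called lower), and none was called higher (7.95% of all genes). Without either senescent library neither gene was called (adjusted p = 0.126 and 0.138 without replicate 1, 0.116 and 0.170 without replicate 2), and TNFAIP8 was also lost without lncRNA-OIS1 knockdown replicate 1, 2 or 3 (0.0555, 0.0695 and 0.0519) or with a pseudocount of 50 (0.0524). In the fit without lncRNA-OIS1 knockdown replicate 4, 4 of 10 were called, beside 29.7% of all genes: CEBPD, TNFAIP8 and NFKB1 lower (13.5% of all genes) and BIRC3 higher (16.1%).

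The NF-kB subunits went different ways between control and senescence, and no difference passed the test with all libraries. NFKB1, which encodes the precursor of a DNA-binding subunit of the canonical dimer, had 865.3 in the control, against 545.6 and 450.1 under senescence. Both were below the control (log2 -0.80, SE 0.37, limma adjusted p = 0.192, and 0.0342 without replicate 4). RELA, the transactivating partner, had 1036.4 against 1028.7 and 959.1, a ratio of the means of 0.959 (log2 -0.06, SE 0.15, adjusted p = 0.814). NFKB2 had 316.7 in the control, against 473.4 and 530.7 under senescence (log2 0.66, SE 0.57, adjusted p = 0.466). RELB had 85.9 against 191.4 and 268.3 (log2 1.40, SE 0.82, adjusted p = 0.287). Both senescent libraries thus exceeded the control for the non-canonical pair NFKB2 and RELB and lay under it for NFKB1 and RELA.

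Of the NF-kB induced genes, BIRC3, an inhibitor of apoptosis and ubiquitin ligase, was at the floor in the control, against 85.0 and 179.3 under senescence, a mean at least 6.61-fold higher. The difference was not called with all libraries (limma adjusted p = 0.440) and was called without replicate 4 (adjusted p = 0.0433). NFKBIA, the inhibitor that NF-kB itself induces, had 475.7 in the control, against 484.6 and 821.2 under senescence (log2 0.41, SE 1.48, adjusted p = 0.884). TNFAIP3, the ubiquitin-editing brake on the pathway, had 64.8 in the control, between the senescent values of 41.8 and 82.8. BIRC3, NFKBIA, RELB and TNFAIP3 were all higher in senescent replicate 2 than in replicate 1, and the 2 senescent libraries are unequal for these genes. CEBPB, the C/EBP factor most closely tied to the secretome, had 288.1 in the control, against 204.8 and 201.3 under senescence (log2 -0.50, SE 0.42, adjusted p = 0.447). In libraries that do not overlap, 4 of 10 members were higher in senescence and 5 lower, beside 48.1% and 42.8% of all genes.

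**Figure D2:**
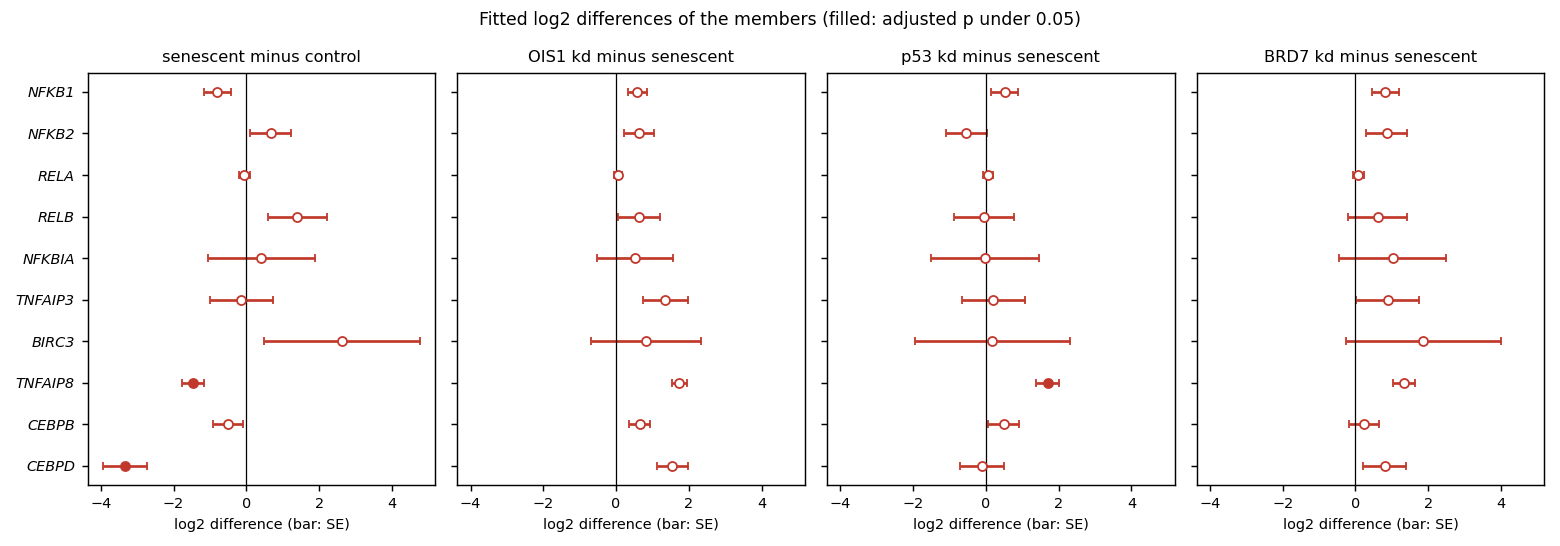
Fitted log2 difference of each gene (horizontal axis, bars are the SE of the fit) for senescent minus control and for each knockdown minus senescent, with filled points where the limma adjusted p is under 0.05. Filled points are CEBPD and TNFAIP8 in senescence and TNFAIP8 with p53 knockdown.

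The lncRNA-OIS1 knockdown was set against senescence with the non-targeting hairpins. Replicates 1 to 3 had higher values than both senescent libraries for 9 of the 10 genes, all but RELA, beside 23.0% of all genes, and for the same 9 the BRD7 knockdown library did too (20.4%). With all 4 libraries 4 of 10 did (TNFAIP3, TNFAIP8, CEBPB and CEBPD), beside 17.1% of all genes, and 0 lay below both senescent libraries in all 4 (21.5%). By limma 0 of 10 were called, as for all genes (0%), and 2 had an unadjusted p under 0.05, TNFAIP8 and CEBPD. Without replicate 4, TNFAIP8 was called, 1 of 10 beside 1.31% of all genes (0.641% called higher and 0.673% lower).

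TNFAIP8 had 151.1, 131.0, 152.3 and 98.8 in lncRNA-OIS1 knockdown replicates 1 to 4. All 4 were above the senescent values of 41.0 and 37.7. Its mean of 133 ± 25.0 (n = 4) was 3.39-fold the senescent mean (log2 1.74, SE 0.22, limma adjusted p = 0.0788, and 0.0385 without replicate 4). CEBPD had 132.0, 60.3, 103.4 and 54.7, each above the senescent 23.2 and 33.8 and below the control at 281.3 (log2 1.55 against senescence, SE 0.43, adjusted p = 0.121). CEBPB had 314.3, 224.6, 305.8 and 473.6, again all above the senescent libraries, with replicate 4 the highest of the 9 (log2 0.65, SE 0.29, adjusted p = 0.266). Both C/EBP genes were thus higher with each hairpin than in senescence, without passing the test.

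For NFKBIA, BIRC3, RELB, NFKB2 and NFKB1 replicate 4 lay below replicates 1 to 3. NFKBIA had 1982.1, 1225.4 and 1622.9 in replicates 1 to 3 and 173.3, the lowest of the 9 libraries, in replicate 4. BIRC3 had 406.1, 393.2 and 725.4 in replicates 1 to 3 and was at the floor in replicate 4, as in the control. RELB had 536.8, 360.9 and 527.8, then 145.9. In each of these genes the first 3 hairpins exceeded both senescent libraries and the fourth lay below both. NFKB2 followed the same order, with 1021.4, 759.3 and 1090.1, then 424.1. NFKB1 had 910.7, 763.7 and 853.9, then 504.9, which lies within the senescent range. The differences fitted over the 4 hairpins were log2 0.53 for NFKBIA (SE 1.04, limma adjusted p = 0.799), 0.83 for BIRC3 (SE 1.51, adjusted p = 0.779), 0.63 for RELB (SE 0.58, adjusted p = 0.574), 0.63 for NFKB2 (SE 0.40, adjusted p = 0.412) and 0.58 for NFKB1 (SE 0.26, adjusted p = 0.263).

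TNFAIP3 had 143.9, 88.4, 348.8 and 115.9, all above the senescent 41.8 and 82.8, with replicate 2 only slightly so (log2 1.36, SE 0.61, limma adjusted p = 0.261). RELA had 967.6, 1027.8, 972.9 and 1163.3, overlapping the senescent libraries, and its sign against senescence turned without replicate 4 (log2 0.05 and -0.01). The median log2 difference over the 10 genes was 0.64 with 4 hairpins and 1.18 without replicate 4, beside -0.02 over all genes in both fits. By library, the median distance of the 10 genes from the senescent mean was 1.27, 0.65 and 1.29 in replicates 1 to 3 and 0.13 in replicate 4, beside -0.01 to -0.02 over all genes. Replicate 4 was below each of replicates 1 to 3 for 7 of the 10 genes, beside 33.8% of all genes tested. As replicate 4 was set apart for its values in these data, this count partly restates that choice.

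**Figure D3:**
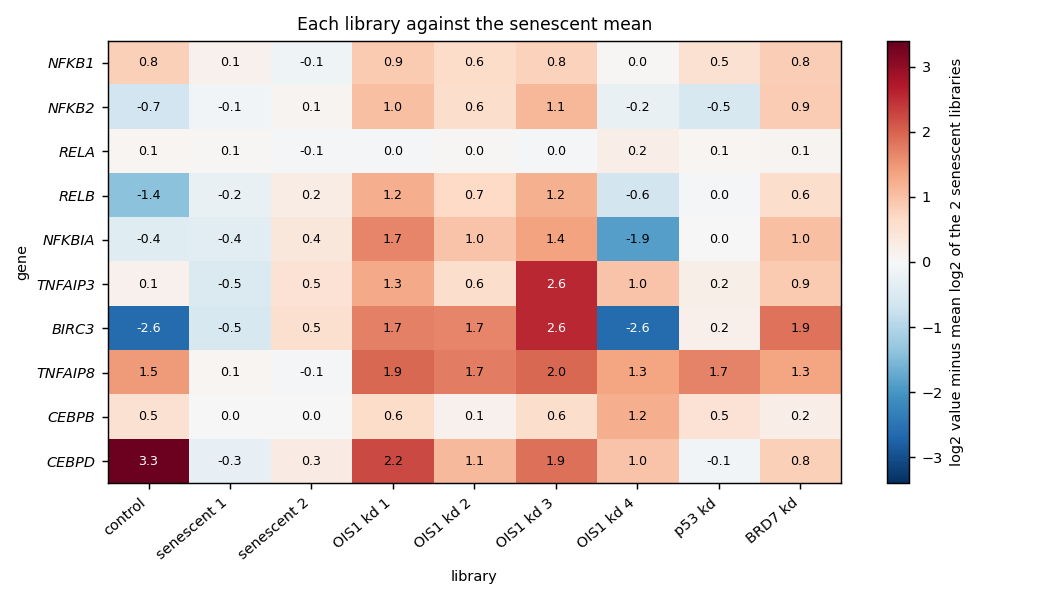
Log2 value of each gene (rows) in each library (columns) minus its mean log2 value in the 2 senescent libraries, printed in each cell and coloured from blue (lower) to red (higher). Lower values of BIRC3 in the control and in replicate 4 are bounded by the floor. Replicates 1 to 3 of the lncRNA-OIS1 knockdown and the BRD7 knockdown are red for 9 of the 10 rows apart from RELA, and replicate 4 is blue for NFKBIA, BIRC3, RELB and NFKB2.

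The BRD7 knockdown library, in which RAS was active and this bromodomain protein was depleted, was higher than both senescent libraries for all 10 genes, beside 40.1% of all genes, with 45.4% of all genes below both. No member was called by limma (0 of 10, beside 0.00801% of all genes), and TNFAIP8 alone had an unadjusted p under 0.05. Without lncRNA-OIS1 knockdown replicate 4 again 0 were called (0.0641% of all genes, 0.0240% higher and 0.0401% lower). BIRC3 stood at 447.3, NFKBIA at 1278.7 and NFKB2 at 905.7, values between those of lncRNA-OIS1 knockdown replicates 1 to 3. TNFAIP8 stood at 98.8 (log2 1.33, SE 0.31, adjusted p = 0.198), NFKB1 at 877.4 (log2 0.82, SE 0.37, adjusted p = 0.399) and RELB at 345.9, just below replicate 2. TNFAIP3 stood at 108.8, CEBPB at 239.2, CEBPD at 48.7 and RELA at 1050.2. The median over the 10 genes was 0.84, beside -0.02 over all genes. This library has no replicate, so its spread is assumed to be that of the replicated groups.

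In the p53 knockdown library 1 of the 10 genes was called against senescence, TNFAIP8, beside 3.84% of all genes (2.27% higher and 1.57% lower). It stood at 127.7, 3.25-fold the senescent mean (log2 1.70, SE 0.31, limma adjusted p = 0.0495). The call was lost without any 1 of the senescent libraries or of lncRNA-OIS1 knockdown replicates 1 to 3 (adjusted p from 0.0736 to 0.286), with a pseudocount of 10 or 50, without the filter or without the variance trend (0.0520 to 0.0608), and it held without replicate 4 (1 of 10, beside 17.2% of all genes, 8.37% higher and 8.82% lower). NFKBIA at 622.8, BIRC3 at 139.9, RELB at 219.9 and TNFAIP3 at 68.1 each lay between the 2 senescent libraries. CEBPD at 26.1 was also between them. NFKB2, at 345.9, was below both (log2 -0.54, SE 0.57, adjusted p = 0.610), while NFKB1 at 712.1, CEBPB at 285.0 and RELA at 1038.2 were above both. In all, 4 of 10 members were above both senescent libraries and 1 below, beside 43.4% and 45.0% of all genes, and the median over the 10 was 0.12. The difference between the p53 and BRD7 knockdown libraries was not tested.

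Against the control, the lncRNA-OIS1 knockdown libraries had 0 of 10 genes called by limma, beside 11.2% of all genes (5.38% higher and 5.83% lower), and 3 with an unadjusted p under 0.05 (NFKB2, RELB and CEBPD). NFKB2, RELB and TNFAIP3 were above the control in all 4 libraries (3 of 10, beside 32.1% of all genes), the non-canonical pair NFKB2 and RELB with log2 differences of 1.29 (SE 0.52, adjusted p = 0.170) and 2.02 (SE 0.75, adjusted p = 0.145). CEBPD alone was below the control in all 4, beside 28.7% of all genes (log2 -1.78, SE 0.55, adjusted p = 0.0995). In the fit without replicate 4, NFKB2, RELB and BIRC3 were called higher, 3 of 10 beside 22.6% of all genes (11.6% higher and 11.0% lower). For BIRC3 these replicates had 393.2 to 725.4, with the control at the floor. NFKB1, TNFAIP8, CEBPB and CEBPD had both the control and replicates 1 to 3 above the 2 senescent libraries, 4 of 10 beside 15.9% of all genes. With hairpins 1 to 3 TNFAIP8 passed the control level of 108.2 and CEBPD stayed under its 281.3.

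Across the 9 libraries the genes most alike within the set were RELB with BIRC3 (Pearson r = 0.948 of log2 values), RELB with NFKB2 (0.915) and NFKBIA with BIRC3 (0.913). TNFAIP8 was closest to NFKB1 (0.789), CEBPB and CEBPD had r = 0.371, and RELA had r = -0.793 with NFKBIA. These values describe 9 libraries that share groups and a common normalisation, and carry no test. Over all 12481 genes, the pattern most like that of BIRC3 was CXCL1 (r = 0.989), a neutrophil chemokine, followed by CYP27B1 (0.973), the vitamin D hydroxylase. CXCL1 had 99.9 and 185 in senescence, 1144.3, 628.6 and 1513.4 in lncRNA-OIS1 knockdown replicates 1 to 3, 158.4 with p53 and 1023.9 with BRD7 knockdown. Both BIRC3 and CXCL1 were at the floor in the control and in replicate 4. The gene most like NFKBIA was TNIP1 (r = 0.957), which encodes a partner of the TNFAIP3 protein, then KDM8 (0.957). CEBPD was most like BBC3 (0.975) and ARHGEF40 (0.963), and TNFAIP3 was most like HS6ST1 (0.917) and ZBTB38 (0.903).

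**Figure D4:**
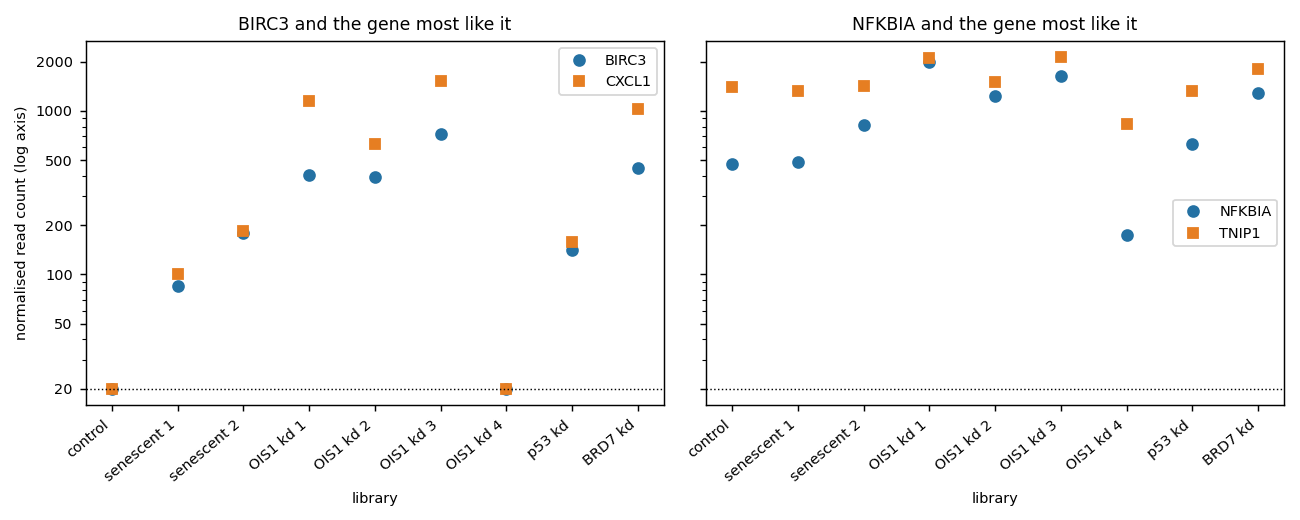
Normalised read count (log axis) in each of the 9 libraries of BIRC3 with CXCL1, and of NFKBIA with TNIP1, the genes with the highest r over the 9 libraries. CXCL1 spans the floor to 1513.4 and TNIP1 spans 827.1 to 2123.7, and both have their highest value in lncRNA-OIS1 knockdown replicate 3.

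The rest of the pathway was read from 8 lists, given by counts and medians beside the whole table (median log2 0.03 for senescent against control, with 7.95% of all genes called higher and 7.10% lower, and 16.1% and 13.5% without lncRNA-OIS1 knockdown replicate 4). Between senescence and control, 0 of 7 other Rel and I-kB genes passed, with a median of 0.51, and 1 was higher without replicate 4. The list of Rel and I-kB genes also counts NKRF, which is neither, and the median here is the value of NKRF. In the kinase list 1 of 12 was lower, MAP3K8 (log2 -2.11), a kinase that links NF-kB to MAPK signalling. MAP3K8 had 101.1 in the control, against the floor and 27.3 in senescence, so the size of its difference is bounded by the floor. Without replicate 4 the kinase list had 2 higher, the kinases IKBKB and TBK1, and 2 lower, MAP3K14 and MAP3K8. Of 23 receptors and adaptors 1 was higher, the adaptor kinase RIPK2 (log2 2.13), and 3 lower, among them TRAF5 (-2.69) and TLR3, at 119.1 in the control with both senescent libraries at the floor (median -0.13), and without replicate 4 1 was higher and 6 lower. None of 15 feedback and ubiquitin genes passed in either fit (median -0.02). None of 6 IAP and TNFAIP8 relatives passed (median 0.06), and 1, BIRC2, was higher without replicate 4. In the C/EBP list CEBPZ, which shares the name but is no leucine zipper factor, was 1 of 3 higher in both fits (0.68).

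Among 30 NF-kB target genes 2 were higher in senescence, the protease PLAU (log2 4.78) and the survival gene BCL2L1 (1.02), and 2 lower, the syndecan SDC4 (-1.50) and PTGES, at 60.1 in the control with all 8 others at the floor. PTGES passed the filter only through its control value, and its replicated groups had no spread. Its call, in this fit and without replicate 4, therefore rests on the filter and the floor. The median of the target genes was 0.10. Without replicate 4, 5 were higher and 2 lower, the added ones being the inflammatory cytokine IL1B and the chemokines CXCL8 and CXCL1. IL1B stood at 23.2 in the control, against 1035 and 3344.9 under senescence, and CXCL8 was at the floor in the control, against 931.6 and 2021.6. Of 16 other regulators of the secretory phenotype 3 were lower, among them KMT2A (-0.66) and MAPKAPK2 (-0.66), with a median of -0.51, and 5 were lower without replicate 4. Under lncRNA-OIS1 knockdown against senescence 0 genes passed in each of the 8 lists. The target list had a median of 0.62 with 4 hairpins and 0.85 without replicate 4, beside -0.02 over all genes. Without replicate 4, REL, IL1R1 and CXCL3 were among the genes called higher. The chemokine gene CXCL3 did not exceed the floor in the control, in senescence or in replicate 4, and had 45.7, 47.8 and 43.9 in replicates 1 to 3. Only replicates 1 to 3 reached the level that the filter asks of a gene to be tested. Its senescent values, both at the floor, had no spread. The call of CXCL3 therefore rests on the filter and the floor and is no evidence of a difference.

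IL1R1, the interleukin-1 receptor upstream of NF-kB, had 1192.1 in the control, 878.2 and 913.2 in senescence, 2528.2, 2364.2, 2517.9 and 1907.1 in lncRNA-OIS1 knockdown replicates 1 to 4, 1643.8 with p53 and 2564.3 with BRD7 knockdown. All 6 knockdown libraries exceeded the control and both senescent libraries. It was called against the control (log2 0.96, SE 0.18, limma adjusted p = 0.0277) and against senescence only without replicate 4 (adjusted p = 0.0788 with 4 hairpins and 0.0129 with 3). Without replicate 4 it was also called against senescence with p53 (log2 0.88, adjusted p = 0.0241) and BRD7 knockdown (log2 1.52, adjusted p = 0.0473), and for senescent against control, where it was lower (log2 -0.41, adjusted p = 0.0226). Against the control the lncRNA-OIS1 knockdown also had the inhibitor NFKBIB (0.71), the adaptor kinase RIPK2 (1.85), PLAU (4.72), the stress-induced gene IER3 and the DNA sensor gene CGAS (1.02) higher and TRAF5 (-2.40) and SDC4 (-1.11) lower. In that comparison 3 of 30 target genes were higher and 2 lower, beside 5.38% and 5.83% of all genes. Without replicate 4 the counts were 9 and 3, beside 11.6% and 11.0%. PTGES, lower in both fits, and CXCL3, higher without replicate 4, rest on the filter and the floor here too. Of 23 receptors and adaptors 2 were higher and 1 lower, and 5 and 1 without replicate 4. Of 7 other Rel and I-kB genes 1 was higher, and 4 without replicate 4. With p53 knockdown BIRC5, a mitotic member of the IAP family, was called higher than in senescence (log2 2.40), and 0 genes passed in the lists of Rel and I-kB genes, kinases, receptors and adaptors, feedback genes, C/EBP factors and targets. Over all genes 2.27% were called higher and 1.57% lower for p53 knockdown. Without replicate 4 receptors and adaptors had 5 higher and 1 lower, targets 2 and 1, and kinases 1 and 1. IAP and TNFAIP8 relatives then had 2 and 0, and other secretory regulators 4 and 1, beside 8.37% and 8.82% of all genes. The relatives called higher included TNFAIP8L3 (log2 0.21), with 23.2 under p53 knockdown and only the floor value of 20 in every other library of that fit. It reached the filter level of 40 in replicate 4 alone (48.6), which that fit leaves out. The call of TNFAIP8L3 therefore rests on the filter and the floor and is no evidence of a difference. Among the targets called higher was CXCL3, at 25.4 with both senescent libraries at the floor, so this call rests on the floor as well. With BRD7 knockdown 0 genes passed in the 8 lists, and IL1R1 alone without replicate 4, and the target list had a median of 0.42.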

How the data were processed

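Expression was measured by polyA RNA-seq in 9 libraries of 5 groups, assigned from the labels. The authors deposited 1 table, a signal per gene and library. The submitters' processing notes name TopHat2, HTSeq and hg19, without roles or versions in the sources used here. The 9 libraries share 1 set of values (total 14916466.5, 1375 genes at the floor of 20), which ties values to ranks and hides depth. Strand use in counting is likewise not stated, so overlapping genes could share reads.

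Values were used as deposited. Tests ran in R 4.3.3 with limma 3.58.1 on log2 values without pseudocount, for 12481 genes reaching 40 in some library, in 1 fit of 5 groups with 4 residual degrees of freedom, variances moderated with a trend, two-sided, adjusted by Benjamini-Hochberg over all genes. A lone library takes its spread from the replicated groups. An exact permutation test of 4 against 2 cannot go below p = 0.0667. The script was tested on simulated data. All 10 genes passed the filter. Genes outside the set were named by rule: up to 2 called genes per list, direction and comparison, and the 2 genes with the highest r for the 4 members of widest range. REL, CXCL3 and the genes of the last section were chosen after their values were seen, as were the promoters shown. Members and lists were chosen with earlier results of these data known. There were 14 alternative settings. Results for some genes of the fits are not reported here.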

Additional observations from a re-analysis of the deposited data

How the results depend on the processing

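Of 630 recomputed differences of single genes, 597 kept direction and side of the threshold, 17 lost a call, 6 gained one and 10 turned sign. The number of genes called for senescent against control was 2, and 1 with a pseudocount of 50; leaving out 1 library at a time gave 0 to 4. For p53 knockdown it was 1, and 0 with a pseudocount of 10 or 50, without the filter or without the trend; leaving out 1 library gave 0 to 1. The ranges were 0 to 1 for lncRNA-OIS1 knockdown against senescence, 0 to 3 against the control and 0 to 0 for BRD7 knockdown. Over all genes senescent against control called 1878, 137 and 124 without senescent replicate 1 and 2, 3704 without lncRNA-OIS1 knockdown replicate 4. Over all genes p53 knockdown called 479, 2 without the trend, 2146 without replicate 4 and 0 without any other single senescent or lncRNA-OIS1 knockdown library. BRD7 knockdown called 1, and 30 without the filter; lncRNA-OIS1 knockdown against senescence called 0, and 57 without the filter and 164 without replicate 4. Fitting only the 2 groups compared called 395 in place of 1399 genes for lncRNA-OIS1 knockdown against the control; for comparisons of 3 libraries this fit was not run.

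All sign changes came from leaving out 1 library. Over these fits log2 ran from -0.63 to 0.35 for TNFAIP3 in senescence. For lncRNA-OIS1 knockdown RELA ran from -0.0062 to 0.10 against senescence and from -0.067 to 0.021 against the control, and CEBPB from -0.049 to 0.31 against the control. With p53 knockdown the ranges were -0.29 to 0.20 (RELB), -0.40 to 0.36 (NFKBIA), -0.28 to 0.70 (TNFAIP3), -0.36 to 0.72 (BIRC3) and -0.37 to 0.17 (CEBPD). The cause of lost calls was not tested.

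Replicate numbers 1 and 2 occur in both the senescent and the lncRNA-OIS1 groups, where they name different hairpins. Deviations of same-numbered libraries correlated at -0.07 and -0.10. With 2 senescent libraries the deviations of 1 mirror those of the other, so these values cannot decide whether same-numbered libraries shared a culture or batch. With the replicate block 0 genes were called, as without it, and the log2 difference of TNFAIP8 was 1.84.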

Other observations

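Some regulators next to the set, named after their values were seen, had wide ranges and no call with all 9 libraries. NFKBIZ, an inducible nuclear I-kB protein that acts on secondary NF-kB targets, had 239.6 in the control, 899.0 and 1197.4 in senescence, 4769.7, 2381.7 and 3258.9 in lncRNA-OIS1 knockdown replicates 1 to 3 and 236.8 in replicate 4. It had 839.0 with p53 and 2207.0 with BRD7 knockdown. Its limma adjusted p for lncRNA-OIS1 knockdown against senescence was 0.761; without replicate 4 it was called for senescent against control (adjusted p = 0.0353). IRAK2, a kinase of the interleukin-1 receptor complex, had 40.7 in the control, 191.6 and 398.7 in senescence, 1231.6, 461.3, 883.2 and 93.7 in replicates 1 to 4, 112.1 with p53 and 572.0 with BRD7 knockdown (adjusted p = 0.715 for lncRNA-OIS1 knockdown against senescence). ZC3H12A, an RNase that degrades inflammatory messages, had 158.0 in the control, 141.8 and 221.7 in senescence, 982.4, 405.3, 828.7 and 157.1 in replicates 1 to 4, 183.3 with p53 and 440.3 with BRD7 knockdown (adjusted p = 0.344). In all 3 genes, replicates 1 to 3 and the BRD7 library exceeded both senescent libraries and replicate 4 did not. Over all genes, 20.4% had replicates 1 to 3 and the BRD7 library above both senescent libraries, whatever the value of replicate 4. The 3 genes were picked with their values known, so their likeness is no evidence of a pattern shared by such regulators.

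BIRC2, the protein-coding gene next to BIRC3 on chromosome 11 in GRCh38.p14 and its closest paralog, had 1326.4 in the control, 2843.7 and 3264.2 in senescence, 3486.3, 3537.7, 3856.1 and 1365.8 in lncRNA-OIS1 knockdown replicates 1 to 4, 3068.4 with p53 and 4343.6 with BRD7 knockdown. The control and replicate 4 were the 2 lowest libraries for both neighbours, and BIRC2 was not called by limma with all libraries (adjusted p = 0.248 for senescent against control, and 0.00787 without replicate 4). Reads shared between the paralogs could not be checked.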
